A study of Mus musculus with 18 samples.

Results

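The transcripts of 9 genes of the complement system were examined in the ipsilateral spinal dorsal horn (DHSC) of formalin-injected mice: the C1q chains *C1qa*, *C1qb* and *C1qc*, the components *C2*, *C4b* and *C3*, the receptors *C3ar1* and *C5ar1*, and the C1 inhibitor gene *Serping1*. They were chosen by name, as the rows of the count table carrying these symbols, and all 9 of them were found among 55573 genes. RNA-sequencing libraries came from 18 adult C57BL/6J mice aged 8 to 12 weeks: 6 from males, 6 from F1/proestrus and 6 from F2/metestrus females. F1 and F2 denote females whose quiet interval between the phases of formalin-evoked pain was short or long, and the stage of the cycle was read from vaginal smears. Every mouse, males included, received 2% formalin in the left hind paw and was sampled 2 h later, so uninjected tissue is not analysed here. The question was whether complement transcripts differ between males and females, or between both female groups, in the inflamed state.

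Complement is a cascade of plasma and tissue proteins that marks targets for removal. In the classical pathway C1q, built from A, B and C chains, binds a target and switches on proteases that cleave C4 and C2, which together form the enzyme that cleaves C3. Fragments of C3 and C5 released in the cascade are sensed by receptors on myeloid cells, and the C1 inhibitor blocks the first proteases. In the central nervous system microglia are the main makers of C1q, which is known for tagging synapses, whereas astrocytes, vessels and the cells of the meninges contribute other components.

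Between 73590509 and 125724156 reads per sample were counted on genes, and even *C5ar1*, with the lowest mean CPM of the 9 genes, had at least 129 counts in every sample. CPM are counts scaled to a common library size after TMM normalization. Judged by the library numbers printed above its columns, the count table joined 2 series (27 to 35, and 188 to 196), in which each group had 3 samples, and values are given within each series where this matters. One female library stood apart: the summed CPM of sensory ganglion neuron markers (*Scn10a*, *Mrgprd*, *Avil* and *Isl2*) was 320 in F1/proestrus sample 5 and between 0.690 and 2.90 in all other libraries. All 9 markers of dorsal horn neurons, such as *Slc17a6* and *Lbx1*, passed the filter on low counts. The tissue is a mixture of cells, so fewer cells of a type and less RNA per cell cannot be told apart.

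The C1q genes are neighbours on chromosome 4 of GRCm38, minus strand: *C1qb* at 136880129 to 136886187, *C1qc* at 136889804 to 136893065, and *C1qa* at 136895917 to 136898803. Since their levels correlated across samples, the stretches just upstream of *C1qb* and *C1qc* are shown, from the RefSeq promoter table for GRCm38.p6, which held 5 of the 9 genes. They are printed 5′ to 3′ on the strand of the gene. The bases in capitals match GAGGAA, a core sequence read by PU.1, the transcription factor of the myeloid lineage, or its reverse complement.
C1qb, chr4:136886201-136886450, minus strand: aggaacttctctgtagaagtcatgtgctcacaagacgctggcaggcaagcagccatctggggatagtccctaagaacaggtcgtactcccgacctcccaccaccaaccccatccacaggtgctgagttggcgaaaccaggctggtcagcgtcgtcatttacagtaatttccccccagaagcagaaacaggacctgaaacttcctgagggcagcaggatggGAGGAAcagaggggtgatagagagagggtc
C1qc, chr4:136893066-136893164, minus strand: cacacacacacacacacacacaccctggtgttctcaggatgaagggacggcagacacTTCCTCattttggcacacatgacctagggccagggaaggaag
The match began 30 bases before the RefSeq start of *C1qb* and 193 bases before that of *C1qc*. The RefSeq start of *C1qc*, at 136892914, lies inside the GENCODE gene. Its printed stretch stops before the GENCODE gene, at 136893066, and so does not reach the RefSeq start. GAGGAA was searched on both strands of the 300 bases that the table gives per promoter, and 28.3% of all 32817 promoters held it. Of the 5 promoters *C1qb* and *C1qc* held it, whereas those of *C3*, *C3ar1* and *C5ar1* did not. The other motifs searched on both strands were the interferon-stimulated response element, which was in none of the 5 (3.43% of all promoters held it), and TTNCNNAA, a C/EBP pattern, which was in *C1qc*, *C3* and *C5ar1* and in 40.7% of all promoters. A match of letters is a description of the sequence and not evidence of binding.

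The C1q chains were the most abundant of the 9 transcripts per length. *C1qb* had 64.8 ± 10.7 CPM per kb of exon (SD, n = 18), *C1qa* 29.0 ± 5.55 and *C1qc* 22.2 ± 3.63. The C1q order was kept in 18 of 18 samples, but with the length of the longest transcript, in place of all exon bases, *C1qc* came before *C1qa* in every sample. *Serping1* followed with 16.5 ± 4.29 CPM per kb (SD, n = 18), below *C1qc* in 16 of 18 samples. *C4b* had 9.26 ± 1.23 CPM per kb and *C3*, the component on which all pathways converge, had 7.25 ± 1.16 (SD, n = 18), in this order in 17 samples. The last 3 genes were less abundant by several fold: *C5ar1*, *C2* and *C3ar1* had 0.963, 0.826 and 0.692 CPM per kb, and the order of *C5ar1* and *C2* held in 13 of 18 samples and that of *C2* and *C3ar1* in 11, so these neighbours did not differ beyond the spread between samples.

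**Figure D1:**
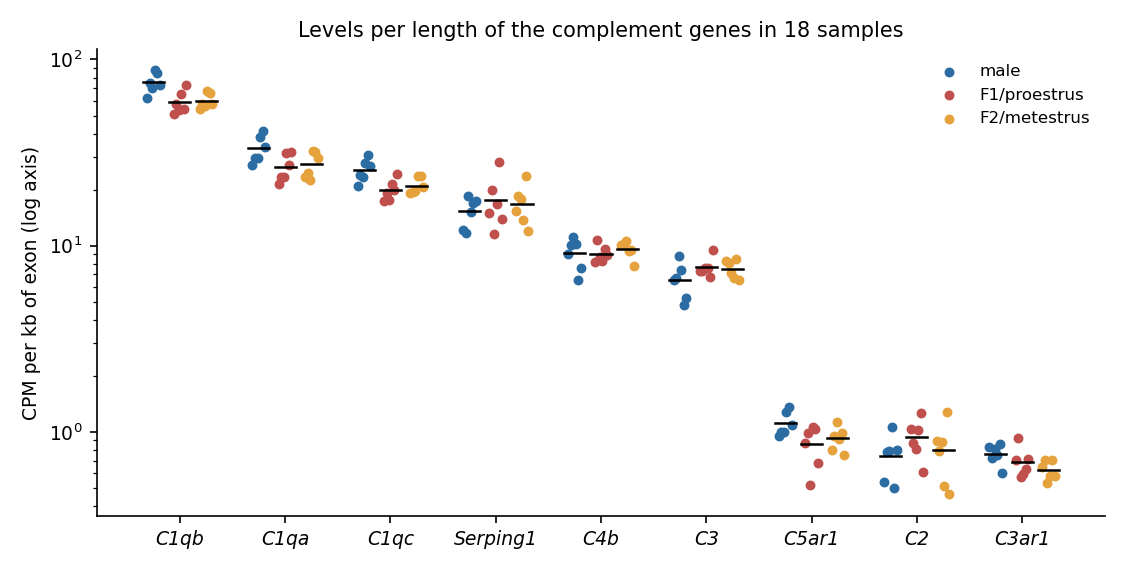
TMM-normalized CPM per kb of exon (log axis) of the 9 complement genes, with 1 point per sample and a bar at the mean of each group of 6 samples. The C1q chains lie at the top, and *C5ar1*, *C2* and *C3ar1* lie below the other genes in every sample.

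All C1q chains had higher values in males than in females, by 1.24- to 1.26-fold, a difference that passed edgeR's test with the library series as a covariate but not without it. *C1qa* ranged from 28.1 to 43.2 CPM with a median of 33.0 in the 6 males, from 22.2 to 33.2 with a median of 26.2 in the F1/proestrus females, and from 23.5 to 33.7 with a median of 28.03 in the F2/metestrus females. *C1qb* ranged from 67.5 to 95.0 CPM (median 80.2) in males, from 55.4 to 79.5 (median 60.7) in F1/proestrus and from 59.1 to 74.0 (median 62.7) in F2/metestrus. *C1qc* ranged from 40.3 to 58.9 CPM (median 48.9) in males, from 33.6 to 47.1 (median 37.7) in F1/proestrus and from 36.9 to 45.7 (median 38.8) in F2/metestrus. The groups overlapped: for each chain, 3 of 6 males lay above all 12 females, and 6 of 6 males lay above the female median.

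In edgeR's quasi-likelihood test of males against all females, with Benjamini-Hochberg adjustment over 24862 genes at a false discovery rate (FDR) of 5%, 0 of the 9 complement genes were called, where 0.197% of all genes tested were called (49 genes, among them 37 higher in males, or 0.149%). The log2 fold changes were 0.31 for *C1qa* (SE 0.105, adjusted p = 0.332), 0.34 for *C1qb* (SE 0.0778, adjusted p = 0.0942) and 0.32 for *C1qc* (SE 0.0812, adjusted p = 0.151). Unadjusted, 2416 genes had a p under 0.05, and *C1qa*, *C1qb*, *C1qc* and *C5ar1* were among them. Two-sided exact permutation tests of the mean log2 CPM over all 18564 splits of 6 against 12 samples gave unadjusted p = 0.0186 for *C1qa*, 0.00145 for *C1qb* and 0.00285 for *C1qc*. The same tests gave 0.0307 for *C5ar1*, 0.0530 for *C3* (lower in males), 0.0533 for *C3ar1*, and 0.376 or above for *C2*, *C4b* and *Serping1*. The splits did not keep the library series apart.

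Within the first library series the 3 males had 28.1, 30.7 and 30.8 CPM of *C1qa*, above all 6 females, which ranged from 22.2 to 25.4. In the second series the 3 males had 35.2, 39.7 and 43.2 CPM and the 6 females 28.1 to 33.7, again without overlap. *C1qc* was parted in the same way, at 40.3 to 46.1 CPM in males against 33.6 to 37.9 in females of the first series, and at 51.7 to 58.9 against 38.5 to 47.1 in the second. *C1qb* was parted in the first series (67.5 to 81.0 against 55.4 to 62.7 CPM), whereas in the second 1 male, at 79.4 CPM, lay just below the highest female, at 79.5. Of all genes tested, 0.261% had every male above every female within each of the series. In the first series by itself 2.53% of genes did so, and in the second 2.55%.

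With the series as a covariate the log2 fold changes of males against females stayed at 0.31 for *C1qa* (SE 0.0469, adjusted p = 0.00209), 0.34 for *C1qb* (SE 0.0568, adjusted p = 0.00643) and 0.31 for *C1qc* (SE 0.0492, adjusted p = 0.00295) in edgeR's test. These were 3 of the 9 complement genes, all higher in males, beside 0.528% of 25180 genes called in either direction and 0.381% called higher. The same fit called all C1q chains with each of the 18 samples left out in turn, with log2 fold changes of 0.28, 0.31 and 0.29 when F1/proestrus sample 5 was absent. DESeq2 called *C1qb* and *C1qc* without the covariate, beside 0.696% of all genes, and all C1q chains with it, beside 3.44%. The first series by itself gave 0.30, 0.31 and 0.26 for *C1qa*, *C1qb* and *C1qc*, and the second by itself 0.31, 0.35 and 0.36, none of them called by edgeR in fits that called 0.0629% and 0.0531% of all genes. The differences between the series in these effects were 0.00, 0.03 and 0.09 on the log2 scale, with adjusted p of at least 0.970 in edgeR's test of the interaction, in which 0% of 26075 genes were called and 1238 had an unadjusted p under 0.05. Against each female group by itself, with the series as a covariate, males had C1q log2 fold changes of 0.34 to 0.36 over F1/proestrus and 0.27 to 0.32 over F2/metestrus. These comparisons share the males, and only *C1qb* against F2/metestrus was called (adjusted p = 0.0437 in edgeR's test), where 0.262% of all genes were called, against 0.0677% over F1/proestrus.

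**Figure D2:**
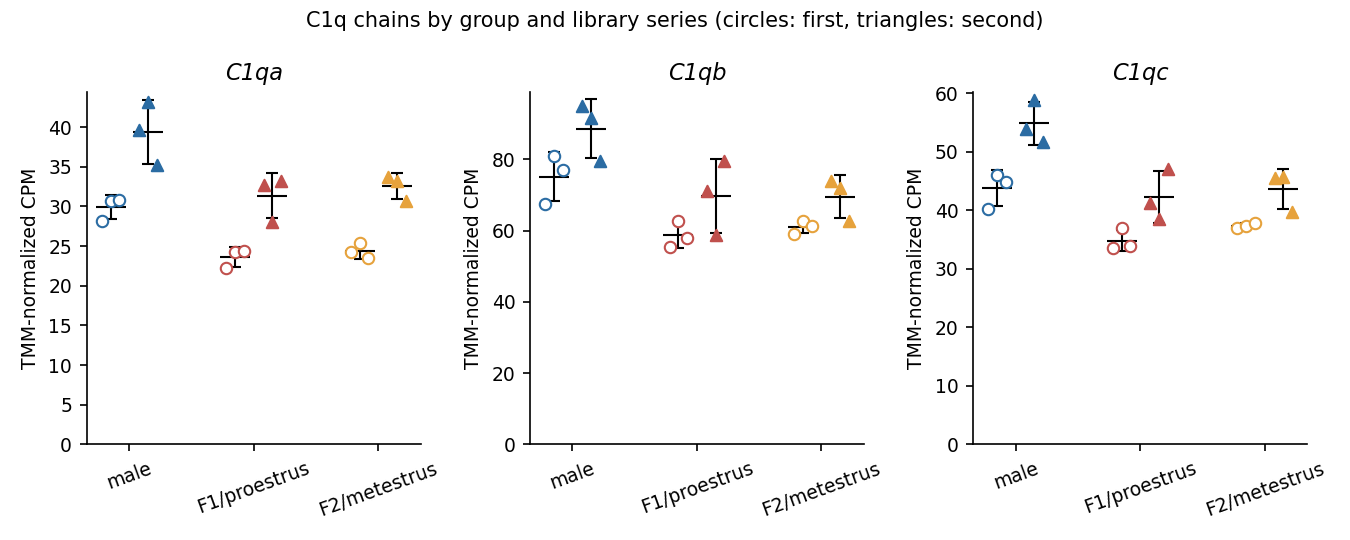
TMM-normalized CPM of *C1qa*, *C1qb* and *C1qc* in each sample by group, with open circles for the first library series and filled triangles for the second, and bars for the mean and SD of 3 samples. Within a series the males lie above the females for *C1qa* and *C1qc*, and the second series lies above the first in every group mean.

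Microglia markers, like C1q, had higher values in males. The summed CPM of 10 microglia markers ranged from 393 to 413 in males and from 350 to 378 in females of the first series, and from 421 to 431 against 359 to 407 in the second, so that the sexes did not overlap within a series. Of the 10 markers, all detected, 0 were called between the sexes without the covariate, with 9 fold changes above 0 and a median of 0.12. With the series as a covariate *Csf1r*, the receptor on which microglia depend, and *Siglech*, a microglial lectin, were called higher in males. Their log2 fold changes were 0.20 (adjusted p = 0.0207 in edgeR's test) and 0.26 (adjusted p = 0.0235). The ratio of summed C1q to summed microglia markers was 0.370 ± 0.0247 (SD, n = 3) in males and 0.328 ± 0.00983 (SD, n = 6) in females of the first series, without overlap, and 0.431 ± 0.0313 (n = 3) and 0.373 ± 0.0343 (n = 6) in the second, where the ranges overlapped. *C1qa*, *C1qb* and *C1qc* correlated with the mean of the microglia markers at r = 0.84, 0.83 and 0.90 over 18 samples that share group and series, and at r = 0.35, 0.36 and 0.54 after each sample was centred on its group and series. The mean of the Schwann cell markers gave r = 0.64, 0.63 and 0.73 over the 18 samples, and 0.06, -0.18 and 0.13 after centring. The mean of the dorsal horn neuron markers gave 0.51, 0.50 and 0.46, and after centring 0.53, 0.47 and 0.50, above the microglia value for *C1qa* and *C1qb*.

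Markers of other cell types differed in both directions. Of the border macrophage markers, 6 of 7 had log2 fold changes above 0 between the sexes (median 0.16), as did 4 of 4 monocyte markers (median 0.33). Both medians were larger than that of the microglia markers (0.12), and none of these markers was called. The medians of meningeal fibroblast (0.19, 5 of 7 above 0, 0 called) and reactive astrocyte markers (0.19, 5 of 6 above 0, 1 called) were larger too. All 6 neutrophil markers that could be tested had log2 fold changes above 0 between the sexes, with a median of 1.28 and a summed CPM of 5.09 to 30.3 in males, 1.81 to 10.3 in F1/proestrus and 5.35 to 10.4 in F2/metestrus. All 5 Schwann cell markers had fold changes above 0, with a median of 0.67 and a summed CPM of 2272 to 5075 in males against 1668 to 2989 and 1725 to 2312 in the female groups. Among all markers, *Lcn2* (lipocalin 2, log2 fold change 1.97, adjusted p = 0.000300) and *Ncmap*, a myelin protein gene of Schwann cells (0.67, adjusted p = 0.00654), were called in edgeR's test of the sexes without the covariate. *Lcn2* was listed here as a reactive astrocyte marker. By flow cytometry the paper found LCN2 protein mostly in leukocytes, which in the pia mater were mostly neutrophils. With the series as a covariate, calls were not limited to microglia markers. Then 2 of 5 Schwann cell markers, 1 of 6 neutrophil markers tested and 1 of 6 reactive astrocyte markers were called, all higher in males. Motor neuron markers had log2 fold changes below 0 for all 5 genes, with a median of -0.62, F1/proestrus sample 5 included. Their summed CPM was 17.3 to 113 in males, 24.8 to 272 in F1/proestrus and 91.7 to 126 in F2/metestrus. The 272 was that of F1/proestrus sample 5, the library with high sensory ganglion neuron markers, and the other F1/proestrus libraries reached at most 127. All 5 red blood cell markers (median -0.14) and all 3 sensory ganglion neuron markers tested (median -4.68, with F1/proestrus sample 5 included) were below 0 too, and none of these was called. The part of these cells in the C1q result was not tested.

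**Figure D3:**
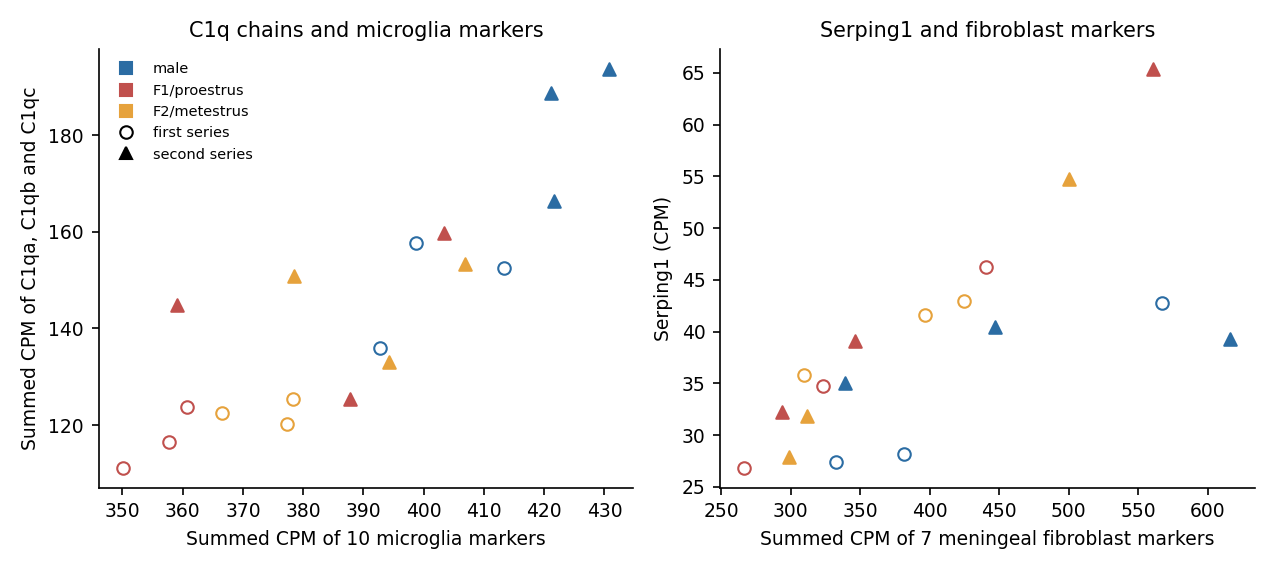
Left, summed CPM of the C1q chains against summed CPM of 10 microglia markers, and right, CPM of *Serping1* against summed CPM of 7 meningeal fibroblast markers, with 1 point per sample coloured by group and shaped by library series. The 3 males of each series lie to the right of its females on the left, and the sample at 65.4 CPM of *Serping1* on the right is F1/proestrus sample 5.

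The components downstream of C1q were not called between the sexes in any fit. *C3* ranged from 24.6 to 45.3 CPM (median 34.0) in males, from 35.0 to 48.6 (median 38.3) in F1/proestrus and from 33.6 to 43.5 (median 39.0) in F2/metestrus. The groups overlapped, with the 2 lowest *C3* values in males of the second series, and the log2 fold change was -0.21 (SE 0.103, adjusted p = 0.517 in edgeR's test). It was -0.06 in the first series and -0.38 in the second, a difference that was not called either (adjusted p = 0.970 in edgeR's test of the interaction). *C4b*, whose product is cut by the C1 complex, had 51.9 ± 9.96 CPM in males, 51.6 ± 5.33 in F1/proestrus and 54.7 ± 5.78 in F2/metestrus (SD, n = 6 each), with a log2 fold change of -0.04 (SE 0.0938, adjusted p = 0.918 in edgeR's test). Its paralog *C4a* was counted at 1.16 CPM on average. Since 35.2% of the 50-base windows of the *C4b* transcript also occur in *C4a*, short reads there match both genes, and the level of *C4b* is uncertain. Of the 100-base windows, 16.5% do so.

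*C2*, the protease partner of C4, had 2.88 ± 0.785 CPM in males, 3.61 ± 0.866 in F1/proestrus and 3.10 ± 1.14 in F2/metestrus (SD, n = 6 each), and was not called (log2 fold change -0.22, SE 0.198, adjusted p = 0.719 in edgeR's test). Its value is uncertain too, because 46.9% of its exon bases are shared with overlapping genes, mainly the gene model *Gm20547*, which has exons over *C2* and *Cfb* and had 370 to 822 counts per sample. *Cfb*, the alternative pathway counterpart of *C2*, shares 79.5% of its exon bases in this way and had 3.96 ± 1.12 CPM in males, 3.71 ± 0.303 in F1/proestrus and 3.96 ± 0.534 in F2/metestrus (SD, n = 6 each).

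Both receptors had log2 fold changes above 0 in males without being called. *C5ar1*, the receptor for C5a on neutrophils and macrophages, ranged from 2.44 to 3.47 CPM (median 2.68) in males, from 1.33 to 2.74 (median 2.38) in F1/proestrus and from 1.92 to 2.90 (median 2.41) in F2/metestrus. The 3 males of the second series, at 2.79, 3.28 and 3.47 CPM, lay above its 6 females, as for 2.55% of all genes tested. In the first series the sexes overlapped. The log2 fold change was 0.32 (SE 0.133, adjusted p = 0.438 in edgeR's test), and 0.31 with the series as a covariate (adjusted p = 0.2397). *C3ar1*, the receptor for C3a, had 3.28 ± 0.411 CPM in males, 2.97 ± 0.562 in F1/proestrus and 2.68 ± 0.317 in F2/metestrus (SD, n = 6 each), with a log2 fold change of 0.21 (SE 0.106, adjusted p = 0.520 in edgeR's test).

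*Serping1*, encoding the C1 inhibitor, was the most variable of the abundant members. It ranged from 27.3 to 42.8 CPM (median 37.2) in males, from 26.8 to 65.4 (median 36.9) in F1/proestrus and from 27.9 to 54.7 (median 38.7) in F2/metestrus. The groups overlapped almost fully, and the highest value was that of F1/proestrus sample 5. The log2 fold change of males against females was -0.17 (SE 0.160, adjusted p = 0.737 in edgeR's test), and -0.08 without that sample.

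**Figure D4:**
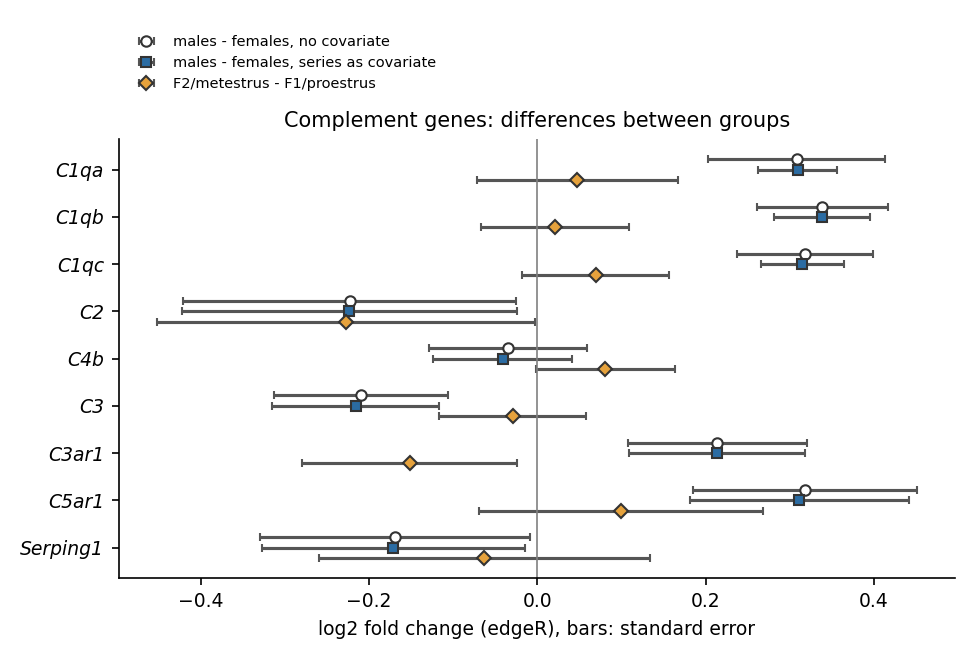
Log2 fold changes from edgeR with their standard errors as bars, for males against females without a covariate (circles) and with the library series as a covariate (squares), and for F2/metestrus against F1/proestrus (diamonds). The C1q chains lie at 0.31 to 0.34 between the sexes with smaller standard errors under the covariate, and near 0 between the female groups.

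Between the female groups 0 of the 9 genes were called in edgeR's test of 24042 genes, of which 0% were called and 596 had an unadjusted p under 0.05 (DESeq2 called 2 genes, or 0.00453%, neither of them a complement gene listed here). The log2 fold changes of F2/metestrus against F1/proestrus ran from -0.23 for *C2* to 0.10 for *C5ar1*, each with an adjusted p of 0.99998 in edgeR's test. For the C1q chains they were 0.05 (*C1qa*, SE 0.119), 0.02 (*C1qb*, SE 0.0884) and 0.07 (*C1qc*, SE 0.0873). With the series as a covariate the standard errors were 0.0535, 0.0671 and 0.0567, at log2 fold changes of 0.05, 0.02 and 0.07. The medians of the female groups differed by less than the range within either of them for every gene.

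The C1q transcripts also differed between the library series. With the group as a covariate, edgeR called 26.9% of 25180 genes between the series, and 14.2% of the 25180 were called higher in the second. Of the 9 complement genes 3 were called, all higher. *C1qa* was higher by 0.41 on the log2 scale (SE 0.0453, adjusted p = 2.78e-06), *C1qc* by 0.28 (SE 0.0465, adjusted p = 0.000171) and *C1qb* by 0.23 (SE 0.0555, adjusted p = 0.00432) in edgeR's test. For *C1qa* and *C1qc* all samples of the second series lay above all of the first in each of the 3 groups, as for 3.37% of all genes, and for *C1qb* in 1 group. *C4b* had a log2 fold change of -0.19 (adjusted p = 0.0839 in edgeR's test). Of the 10 microglia markers, 8 had log2 fold changes above 0 and 2 below between the series, with a median of 0.16. Among them 5 were called higher in the second series and *Cx3cr1* lower. What the series are, apart from their library numbers, is not given in the sources used here.

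The shares of the chains were steadier than their sum. *C1qa* took 21.0% ± 1.16, *C1qb* 49.2% ± 1.33 and *C1qc* 29.9% ± 0.743 of the summed C1q CPM (SD, n = 18). The *C1qa* share was 20.8% in males, 21.0% in F1/proestrus and 21.1% in F2/metestrus. It was 20.1% ± 0.580 in the first series and 21.9% ± 0.758 in the second (SD, n = 9 each), while the *C1qb* share was 50.1% and 48.2%. The chains correlated with each other at r = 0.91 to 0.96 over 18 samples, and at r = 0.80 to 0.90 after centring on group and series.

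The genes whose pattern was most like that of the members differed from member to member. The mean of the C1q chains was followed most closely by *Rasgrp2* (r = 0.93 over 18 samples, 0.74 after centring on group and series), *Tusc1*, *Itpk1*, *Bud23* and *Sgf29*, all of which were themselves called between the library series. *Serping1* was followed by *Igfbp6* (r = 0.89, and 0.88 after centring), *Gm11747*, *C1qtnf1*, *Smoc2* and *Nrk*, at r of 0.79 or above without F1/proestrus sample 5. *Igfbp6*, encoding a binding protein of insulin-like growth factors, and *Smoc2*, encoding a matrix protein, are genes expressed by fibroblasts. *Gm11747* is annotated as antisense, and its span overlaps part of that of *C1qtnf1* on the opposite strand. Use of strand in the counting is not stated, and their shared exon bases were not measured.

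*Serping1* correlated with the mean of 7 meningeal fibroblast markers (*Dcn*, *Lum*, *Col1a1*, *Col1a2*, *Ogn*, *Slc6a13* and *Igf2*) at r = 0.82 over 18 samples, at r = 0.91 after centring and at r = 0.82 without F1/proestrus sample 5, whereas the C1q chains did so at r of 0.08 to 0.19. *C5ar1* correlated with the mean of 7 border macrophage markers, such as *Mrc1* and *Cd163*, at r = 0.80, and at r = 0.88 after centring, against 0.22 to 0.29 for the C1q chains. Other lists followed these genes too. *C5ar1* had r = 0.68 with Schwann cell, 0.64 with reactive astrocyte and 0.59 with meningeal fibroblast markers (0.39, 0.58 and 0.60 after centring). *Serping1* had r = 0.57 with border macrophage and 0.56 with reactive astrocyte markers (0.74 and 0.78 after centring). These values describe 18 samples of mixed tissue that share group and series, and were not tested.

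*C4b* was most like *Mir6897* (r = 0.91), *Gm32926*, *Greb1l*, *Afdn* and *Gm19134*, and *C3* was most like *Mir6978* (r = 0.83), *Gm26797*, *Cabyr*, *Usp33* and *Wdr11*. *Mir6978* lies inside *C3* on the same strand, on chromosome 17 of GRCm38 from 57217172 to 57217228, so its reads may be those of the *C3* transcript. *Mir6897* lies on chromosome 1, away from *C4b*. *C3* and *C4b* correlated with each other at r = 0.65, and at r = 0.60 after centring.

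Of 45 other complement genes 33 could be tested between the sexes, and 0 were called, with or without the series as a covariate. Their median log2 fold change was -0.05, with 13 above 0 and 20 below, beside a median of -0.00 over all genes tested. The smallest p were those of receptors. *Itgb2*, the beta chain of complement receptor 3, had 8.71 ± 1.27 CPM in males, 6.98 ± 0.949 in F1/proestrus and 7.08 ± 0.893 in F2/metestrus (SD, n = 6 each), with a log2 fold change of 0.31 (adjusted p = 0.271 in edgeR's test). *Itgam*, its alpha chain, had a log2 fold change of 0.19 (adjusted p = 0.278 in edgeR's test), and 68.7% of its exon bases are shared with a second gene model. *Cr2*, the receptor for C3 fragments on B cells, was low, with 0.280 ± 0.0819 CPM in males and 0.488 ± 0.183 and 0.512 ± 0.222 in the female groups (SD, n = 6 each), with a log2 fold change of -0.83 (adjusted p = 0.297 in edgeR's test).

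Regulators that restrain complement were the most abundant of these genes. *Clu* (clusterin) had 275 ± 23.9 CPM per kb (SD, n = 18), *Vtn* (vitronectin) 54.2 ± 7.54, *Susd4* 42.8 ± 2.54, and *Cd59a*, which blocks the membrane attack complex, 21.7 ± 2.68. Between the female groups 31 of the 45 could be tested and 0 were called. The smallest p were those of *Csmd1* (log2 fold change -0.31), *Cfd*, the factor D protease made by fat cells (1.56, SE 0.827), and *Cd46* (-0.34), each with an adjusted p of 0.99998 in edgeR's test. The medians of *Cfd* were close, at 0.239 CPM in F1/proestrus and 0.273 in F2/metestrus, but its highest values were 0.583 and 3.38 CPM. Between the library series *Clu* and *Susd4* were called higher in the second, by 0.21 and 0.11 on the log2 scale. *Masp2*, *Cd46*, *Csmd1*, *Csmd2* and *Csmd3* were called lower, at log2 fold changes of -0.35, -0.50, -0.38, -0.47 and -0.71, where 12.7% of all genes were lower.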

How the data were processed

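The authors deposited raw read counts per Ensembl gene for 18 samples, with no normalization. Per the paper's methods, reads were uniquely mapped to mm10 with Subread and counted on exons with featureCounts. The submitters' processing notes name Subread 2.0.3. Use of strand and the treatment of reads that overlap several genes are not given in the sources used here. The labels describe SMART-Seq cDNA and Nextera XT libraries, the paper's methods TruSeq. A second deposited table, of 1 DESeq2 comparison between groups, served only for gene symbols, a column of names with the unit other, and its statistics were not used. The 9 genes, the pathway and marker lists and the tests were chosen with earlier results of these data known.

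Counts were filtered with filterByExpr (minimum count of 10, total of 15) and TMM-normalized. The tests were run in edgeR 4.0.16 and R 4.3.3 (quasi-likelihood, Benjamini-Hochberg, FDR 5%): males against 12 females over 18 samples, F2/metestrus against F1/proestrus over 12 females, the library series with group as a covariate, and the interaction of sex and series. Standard errors are the log2 fold change over the square root of F. Correlations use log2 CPM with a prior count of 2. The scripts were tested on simulated data. Positions and exon lengths are from GENCODE vM21, which held 55394 of 55573 identifiers. No libraries had identical counts, and p-values measure the spread between mice. In fits without the series as a covariate, that spread also holds the difference between the series. At the depth given in the report, 3 counts equal 0.0240 to 0.0407 CPM, for counting error only.

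Named genes were the 9, pathway genes called, the 5 with the highest level per length, the 3 with the smallest p between sexes and between female groups, *C4a* and *Cfb*, the 5 genes most correlated with C1q, *C3*, *C4b* and *Serping1*, and markers called between the sexes. Of these, 1 gene is not reported here, nor is 1 promoter motif. *Csf1r*, *Siglech* and *Cx3cr1* were named after their values were seen. Alternatives were DESeq2 1.42.0, limma voom 3.58.1, DESeq2 size factors, other count filters, robust dispersions, *C4b* and *C4a* summed, the replicate number as a block, the series as a covariate or alone, each female group alone, 3 groups in 1 fit, the longest transcript for lengths, and each sample left out. Chosen after seeing the data were the series as a covariate together with a single female group, a left-out sample or DESeq2, and the sums of markers beside C1q and *Serping1*.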

Additional observations from a re-analysis of the deposited data

Results flagged for a closer look

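Of 27 sets of 6 values, 9 genes in 3 groups, 1 held a sample far from the others. *C3* in F1/proestrus sample 6 was 48.6 CPM, and the nearest sample of its group had 39.1 CPM. About 1 such set in 20 arises by chance. Without that sample the log2 fold change of *C3* between the sexes was -0.19, and the one between the female groups turned from -0.03 to 0.04.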

How the results depend on the processing

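The call of the C1q chains between the sexes depended on the model. The number of the 9 genes called was 0 without a covariate, 3 with the library series as a covariate, 3 in DESeq2 with that covariate, 2 in DESeq2 without it (*C1qb*, adjusted p = 0.0182, and *C1qc*, 0.0498), and 1 (*C1qb*) for males against F2/metestrus alone with the covariate. With a sample left out it ran from 0 to 1 without the covariate, the call being *C1qb* without male sample 1 (adjusted p = 0.0411) or F1/proestrus sample 6 (0.0478), and was 3 throughout with it. Over these fits the log2 fold changes of the C1q chains stayed between 0.22 and 0.38. The replicate numbers do not pair the samples: 9 of 18 same-numbered pairs had deviations correlated above 0.1 (range -0.105 to 0.228), and 4 samples correlated best with their own number. With the replicate block 3 of the 9 genes were called, *C1qa*, *C1qb* and *C1qc*, and 112 of all genes.

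All genes called between the sexes numbered 49, against 166 in DESeq2, 133 with the covariate, 729 with both, 31 with at least 10 counts in every sample, 16 and 13 in the first and second series alone, 13 and 22 against F1/proestrus and F2/metestrus alone, and 17 against F1/proestrus with the covariate. Leaving out a sample gave 25 (male sample 5) to 77 (F1/proestrus sample 5), and with the covariate 51 (male sample 5) to 232 (male sample 4). Between the female groups DESeq2 called 2 genes and the other fits 0. Between the series *C1qb* was not called with the series alone in the model (adjusted p = 0.0812), and *C4b* was called in voom (0.0408), without a filter (0.0301) and with the series alone (0.0439).

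Directions turned for values near 0. *C4b* between the sexes was 0.036 in the first series and 0.0019 against F1/proestrus with the covariate, and ran from -0.11 to 0.034 (without male sample 5) over left-out samples, or from -0.11 to 0.016 with the covariate. Between the female groups, over left-out samples, *C1qa* ran from -0.0069 to 0.11, *C1qb* from -0.018 to 0.092, *C3* from -0.062 to 0.040, *C5ar1* from -0.011 to 0.17 and *Serping1* from -0.18 to 0.13. In voom *C1qa* was -0.0068 and *Serping1* 0.043. In the first series *C3* was 0.077 and *Serping1* 0.15, and in the second *C1qb* was -0.0035, *C4b* -0.0068 and *C5ar1* -0.068. *C2* between the series was -0.13 in voom, -0.00017 with the series alone, and -0.12 to 0.11 over left-out samples. With the longest transcript 5 of the 9 genes kept their rank by level. The cause of these changes was not tested.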
